A study of Mus musculus with 10 samples.

Results

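Smooth muscle contractile and filament genes were examined for binding of RBPJ, through which Notch receptors act on DNA, in mouse brain pericytes. The group comprised 10 genes chosen by name, namely Acta2, Tagln, Cnn1, Lmod1, Myh11, Myl9, Des, Vim, Myocd and Srf, of 21938 protein-coding genes in the annotation. Peaks were assigned to a gene when their centre lay in its gene body or in its regulatory domain, which ran from 5 kb upstream to 1 kb downstream of the transcription start site (TSS, here the 5′ end of the gene) and was extended up to the neighbouring domains by at most 1 Mb. This gave 13 peaks at 7 of the 10 genes, of 11094 peaks in all. The peaks came from chromatin immunoprecipitation and sequencing (ChIP-seq) of untreated RD1 cells, a line that the labels call brain pericytes, grown in pericyte medium on collagen I-coated dishes. The study describes its cultured brain pericytes as primary cells, isolated from mice with both copies of Rbpj floxed and passaged before use. The series holds 5 groups of 2 replicates each, RBPJ, H3K4me1, H3K4me3, histone H3 and input chromatin, and the 8 samples other than RBPJ were not analysed here. The files of both RBPJ replicates held the same list of peaks, with a chromosome, a start and an end but no height, so that the spread between replicates and the depth behind a peak were not available here. Peak positions hold no expression, and the labelled cell type was therefore not checked against marker genes.

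Smooth muscle cells and contractile pericytes shorten when myosin pulls on filaments of smooth muscle actin. Actin-binding proteins tune that movement, and intermediate filaments of desmin and vimentin carry the tension through the cell. Many genes of this programme are switched on by serum response factor (SRF), which binds the CArG box in DNA, together with its cofactor myocardin. RBPJ recognises the core sequence TGGGAA, which reads TTCCCA on the other strand, and works with the Notch intracellular domain as an activator or with corepressors as a repressor.

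The peaks of under 500 bp that held TGGGAA are shown first, since in all but the Myh11 peak the motif lay near the centre of the interval. They are given 5′ to 3′ on the strand of the gene to which they were assigned, on GRCm38, whole up to 300 bp and otherwise as the central 300 bp. Capitals mark TGGGAA or TTCCCA, and in the Myh11 peak also TGACTCA, the recognition sequence of AP-1 factors.
Des, 17.2 kb upstream, chr1:75343016-75343182, plus strand: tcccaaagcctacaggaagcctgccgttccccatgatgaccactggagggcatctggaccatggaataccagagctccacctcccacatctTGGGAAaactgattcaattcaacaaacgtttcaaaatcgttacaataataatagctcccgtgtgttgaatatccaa
Myocd, 96.8 kb upstream, chr11:65366666-65366851, minus strand: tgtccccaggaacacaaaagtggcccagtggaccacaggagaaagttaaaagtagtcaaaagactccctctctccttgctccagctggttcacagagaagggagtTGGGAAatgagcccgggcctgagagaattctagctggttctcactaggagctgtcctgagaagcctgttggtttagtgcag
Srf, 33.7 kb upstream, chr17:46589779-46589968, minus strand: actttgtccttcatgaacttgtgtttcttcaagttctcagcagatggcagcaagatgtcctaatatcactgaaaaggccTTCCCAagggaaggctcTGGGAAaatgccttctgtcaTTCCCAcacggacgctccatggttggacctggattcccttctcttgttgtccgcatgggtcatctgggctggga
Myl9, 43.2 kb upstream, chr2:156732074-156732340, plus strand: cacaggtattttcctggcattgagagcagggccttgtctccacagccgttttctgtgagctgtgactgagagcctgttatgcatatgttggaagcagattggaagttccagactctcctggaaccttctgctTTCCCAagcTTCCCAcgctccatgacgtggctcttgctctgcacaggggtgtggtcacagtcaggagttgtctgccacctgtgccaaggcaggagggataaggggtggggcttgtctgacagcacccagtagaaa
Vim, 129 kb downstream, chr2:13702818-13703117, plus strand: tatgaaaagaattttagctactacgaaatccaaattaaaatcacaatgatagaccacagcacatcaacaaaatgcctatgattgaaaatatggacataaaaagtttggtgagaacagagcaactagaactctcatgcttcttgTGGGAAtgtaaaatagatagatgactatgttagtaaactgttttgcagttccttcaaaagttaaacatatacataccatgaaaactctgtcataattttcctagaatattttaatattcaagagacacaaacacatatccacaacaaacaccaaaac
Myh11, 12.5 kb upstream, chr16:14303708-14304007, minus strand: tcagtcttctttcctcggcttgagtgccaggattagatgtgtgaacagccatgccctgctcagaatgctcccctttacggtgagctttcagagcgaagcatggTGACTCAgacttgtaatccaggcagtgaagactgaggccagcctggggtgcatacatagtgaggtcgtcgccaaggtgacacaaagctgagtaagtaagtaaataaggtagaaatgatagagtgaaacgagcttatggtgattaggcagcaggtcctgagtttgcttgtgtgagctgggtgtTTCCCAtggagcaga

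Of the 13 peaks at these genes, 12 were centred more than 1 kb from the TSS of the member. A peak was present at 7 of the 10 genes, or 70% (95% exact binomial interval 34.8 to 93.3%), where 46.7% of all protein-coding genes had one. Without chromosomes 4, 7 and X, which held few peaks and no member, 54.8% of genes had one, a comparison chosen after seeing the data. The regions searched were of usual size, with a median length of 86.3 kb against 93.8 kb for all genes. The domain without the gene body gave the same 7 genes, against 45.6% of all. A peak was centred in the gene body of 3 members (Vim, Myocd and Srf), against 25.2% of all genes, and 4 members (Myl9, Vim, Myocd and Srf) had at least 2 peaks, against 18.4%. Among the 10 genes, 1 had a peak centred within 1 kb of its TSS, or 10% (interval 0.253 to 44.5%), against 24.9% of all genes. The same gene, Vim, was the only member with a peak in the basal part of the domain, against 27.1% of all genes. The 10 genes were chosen by name and not drawn at random, so the intervals are descriptions and cannot stand for a test against all genes. No test was made of these shares, and the lack of a peak does not show that RBPJ was absent from a gene.

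**Figure D1:**
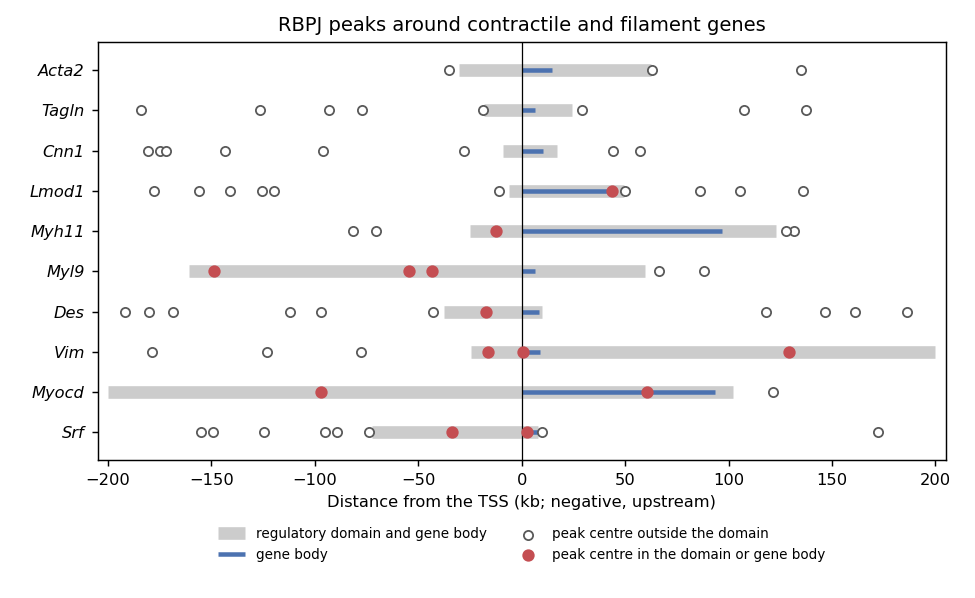
Peak centres around the TSS of each of the 10 genes, with distance in kb on the horizontal axis (negative values are upstream), grey bars for the regulatory domain with the gene body and blue bars for the gene body, both clipped at 200 kb. Filled points are the 13 assigned peaks and open points are other peaks; Acta2, Tagln and Cnn1 have open points only, and only Vim has a filled point within 1 kb of its TSS.

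The gene of smooth muscle actin had no peak. Acta2 (ENSMUSG00000035783.9, chr19:34241090-34255590, minus strand) encodes alpha smooth muscle actin, the filament on which smooth muscle myosin pulls. Its region of 92.4 kb held 0 peaks, against 0.643 from density, the number that its length would hold at the average peak density of the chromosome. The nearest peak (chr19:34290494-34290732, 239 bp) was centred 35023 bp upstream of Acta2 and 53 bp from the TSS of Fas, the gene of a death receptor, and it held 1 TGGGAA site. On the other side, the next peak lay 63139 bp downstream of the Acta2 TSS and had Stambpl1 as the gene with the nearest TSS.

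Of the 3 genes for actin-binding proteins, 1 had a peak. Tagln (ENSMUSG00000032085.5, chr9:45929619-45936058, minus strand) encodes transgelin or SM22-alpha, which bundles actin filaments. Cnn1 (ENSMUSG00000001349.5, chr9:22099216-22109630, plus strand) encodes calponin, which damps actomyosin. The regions of 42.3 kb at Tagln and 25.7 kb at Cnn1 both held 0 peaks, with 0.226 and 0.137 from density. The nearest peak of Tagln (chr9:45953680-45955605, 1926 bp) was centred 18584 bp upstream of its TSS and 616 bp from the TSS of Sidt2. Its centre lay 385 bp past the edge of the Tagln region, and 578 bp of the interval overlapped that region, so that Tagln counted as having a peak when any overlap of 1 bp was accepted, which raised the members to 8 of 10 and all genes to 48.1%. The peak nearest to Cnn1 (chr9:22070821-22071548, 728 bp) was 28032 bp upstream and 75 bp from the TSS of Gm49318, a gene model that overlaps Zfp653 on the same strand. For Acta2, Tagln and Cnn1 alike, the nearest peak was thus centred within 1 kb of the TSS of another gene, which was also the case for 55.8% of all 11684 genes without a peak.

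Lmod1 (ENSMUSG00000048096.7, chr1:135324807-135368065, plus strand) encodes leiomodin, which nucleates actin filaments in smooth muscle. Its peak (chr1:135367680-135369254, 1575 bp) lay at the far end of the gene, 43660 bp downstream of the TSS, and overlapped the last 386 bp of Lmod1. The centre was outside protein-coding genes, and the nearest TSS, at 6770 bp, was that of Shisa4. The interval held 5 TGGGAA sites, all with TTCCCA on the strand of Lmod1, and none within 100 bp of its centre. Of these, a pair outside the gene was separated by 9 bases. A nearer peak, at 10918 bp upstream of Lmod1, lay outside its region and 111 bp from the TSS of Timm17a.

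Both myosin genes had peaks only upstream and within introns of neighbouring genes. Myh11 (ENSMUSG00000018830.10, chr16:14194535-14291372, minus strand) encodes the smooth muscle myosin heavy chain. Its single peak (chr16:14303700-14304014, 315 bp) was centred 12485 bp upstream in intron 4 of Fopnl, and Myh11 was nonetheless the gene with the nearest TSS. The AP-1 sequence lay 44 bp from the centre of this peak, whereas the only TGGGAA site was 137 bp away on the other side. No peak was centred in the 96838 bp of the Myh11 gene itself.

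Myl9 (ENSMUSG00000067818.6, chr2:156775420-156781658, plus strand) encodes a regulatory light chain of myosin, whose phosphorylation starts contraction. Its region of 220 kb held 3 peaks against 1.23 from density, and all 3 lay within Dlgap4, the gene upstream. The farthest (chr2:156626443-156626955, 513 bp) was 148721 bp from the Myl9 TSS, in intron 1 of Dlgap4, and nearer to the TSS of Dlgap4. The middle one (chr2:156720830-156721476, 647 bp) was 54267 bp upstream of Myl9, had a GC content of 76.4% and was centred 83 bp from the start of a Dlgap4 transcript. Neither held TGGGAA. The peak nearest to Myl9 (chr2:156732074-156732340, 267 bp), 43213 bp upstream in intron 7 of Dlgap4, held 2 TGGGAA sites in the same direction, 3 bases apart, whose middles lay 2 and 11 bp from the peak centre.

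The intermediate filament genes showed both a promoter peak and distal ones. Vim (ENSMUSG00000026728.9, chr2:13573927-13582826, plus strand) encodes vimentin, the intermediate filament of mesenchymal cells. A peak of 2246 bp (chr2:13573493-13575738) ran from 434 bp upstream to 1811 bp downstream of its TSS and was centred 688 bp downstream, in a coding exon. It covered 20.4% of the gene and 2 of the 9 exons of the principal transcript. This interval held 0 TGGGAA sites but 2 AP-1 sequences. A second peak (chr2:13556376-13558806, 2431 bp) was centred 16336 bp upstream outside protein-coding genes, with 3 AP-1 sequences and 1 TGGGAA site, and its nearest TSS was that of Trdmt1. The third (chr2:13702813-13703122, 310 bp) was 129040 bp downstream of the Vim TSS in intron 3 of St8sia6, whose TSS was nearest at 91097 bp, and here a TGGGAA site lay 3 bp from the centre. With 30.3%, its GC content was the lowest of the 13, and 19% of it was soft-masked as repeat sequence. The 243 kb region of Vim held 3 peaks against 1.36 from density.

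Des (ENSMUSG00000026208.9, chr1:75360329-75368579, plus strand) encodes desmin, the intermediate filament of muscle cells, which also marks pericytes. The gene had 1 peak, of 167 bp (chr1:75343016-75343182), the narrowest of the 13, centred 17230 bp upstream outside protein-coding genes. Des was the gene with the nearest TSS. Its single TGGGAA site lay 11 bp from the centre, and 0% of the interval was soft-masked as repeat sequence. The other 10 peaks within 200 kb of Des lay outside its region.

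Both genes for transcriptional regulators among the members had 2 peaks. Srf (ENSMUSG00000015605.6, chr17:46548329-46556175, minus strand) encodes SRF, and its region of 80.2 kb held 2 peaks against 0.472 from density. The wide one (chr17:46551397-46555855, 4459 bp) began 320 bp downstream of the TSS and ended 4778 bp downstream of it, covering 56.8% of the gene and 3 of 7 exons of the principal transcript. It held 4 TGGGAA sites, all in introns and on the strand of Srf, and 1 CArG box, 268 bp from the centre. Of the 13 peaks this was the only one with a CArG box, against 4.33% of all peaks. The CArG box and both sites that read GTGGGAA, a longer form of the RBPJ motif, are shown on the strand of Srf, with the CArG box or TGGGAA in capitals.
CArG box, chr17:46553343-46553372, minus strand: gcctccgtgcCCATATAAGGccggttcggg
site 887 bp from the centre, chr17:46554498-46554527, minus strand: ctacaacctgggTGGGAAccagtgttgtta
site 1361 bp from the centre, chr17:46554972-46555001, minus strand: cgcgaagggcggTGGGAAagggagcagaag

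The narrow Srf peak (chr17:46589779-46589968, 190 bp) was centred 33698 bp upstream, in intron 5 of Ptk7, with Srf as the gene with the nearest TSS. It held 3 TGGGAA sites, at 23, 3 and 14 bp from the centre, more than any other of the 6 printed peaks. As printed, the TGGGAA in the middle and the TTCCCA after it faced each other with 14 bases between them, whereas the TTCCCA before it was 11 bases away and faced away. Sites that face each other are known from Notch target genes, where Notch complexes can bind them as a dimer. A facing pair at 14 bases was present in 1 of the 13 peaks and in 50 of all 11094, or 0.451%. At any gap up to 30 bases it was the same 1 of 13, against 1.81%. Of the interval, 0% was soft-masked as repeat sequence. Among facing pairs in all peaks, 50 had a gap of 14 bases, and every other gap from 0 to 30 bases had 1 to 15 pairs. This feature was singled out after its values were seen.

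Myocd (ENSMUSG00000020542.18, chr11:65176561-65269989, minus strand) encodes myocardin, the cofactor of SRF in smooth muscle. Its region was the longest of the group, at 619 kb, and held 2 peaks where density would give 4.62, which made it the only member with a peak whose number was below that from density. The peak within the gene (chr11:65209182-65209896, 715 bp) was in intron 5 of the principal transcript, 60450 bp downstream of the TSS and 4072 bp from the start of another Myocd transcript. By gene 5′ ends, the nearest TSS was that of Arhgap44, at 46578 bp. It held 1 TGGGAA site, 165 bp from its centre, and 1 AP-1 sequence. The upstream peak (chr11:65366666-65366851, 186 bp) was 96769 bp from the TSS, outside protein-coding genes, with a TGGGAA site 14 bp from its centre.

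As a group, the 13 peaks compared with 9.88 from density over the 10 regions, of which 4.62 fell to Myocd. Density assumes an even spread of peaks along the chromosome, and the same comparison is not given here for all genes. The peak centres were in introns in 7 cases, outside protein-coding genes in 4 and in coding exons in 2, and 8 of 13 lay upstream of the member's TSS. The member had the nearest TSS for 8 of the 13 peaks, or 61.5%, against 60.7% of all 18225 pairs of a gene and a peak. Of the 13 peaks, 1 was centred within 1 kb of the member's own TSS, against 29.9% of those pairs. In all, 2 of 13 peaks were centred within 1 kb of a protein-coding transcript start, at Vim and within Dlgap4, against 49.5% of all peaks. Their median width was 513 bp, with a range of 167 to 4459 bp, and all peaks had a median of 690 bp. GC content had a median of 51.6% over the 13 peaks and 55.8% over all.

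The distance from the TSS to the nearest peak varied from 688 bp at Vim and 2549 bp at Srf to 43213 bp at Myl9 and 60450 bp at Myocd. In between came Lmod1, Myh11, Des, Tagln, Cnn1 and Acta2, in that order, from 10918 to 35023 bp. The median of the 10 genes was 17.9 kb, and that of all genes was 38.9 kb. The value for all genes includes chromosomes 4, 7 and X, which held few peaks and no member, and a median without them is not given here. With peaks of at least 500 bp alone these became 43.3 and 71.3 kb, and with the start of any protein-coding transcript 14.9 and 35.2 kb, where Myocd moved from 60450 to 4072 bp. Of all genes, 22.4% had a nearer peak than Vim and 57.4% a nearer one than Myocd, and for 8 of the 10 members, all but Myl9 and Myocd, the nearest peak was closer than the median of all genes. For 4 of them, Acta2, Tagln, Cnn1 and Lmod1, the nearest peak lay outside their own region.

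**Figure D2:**
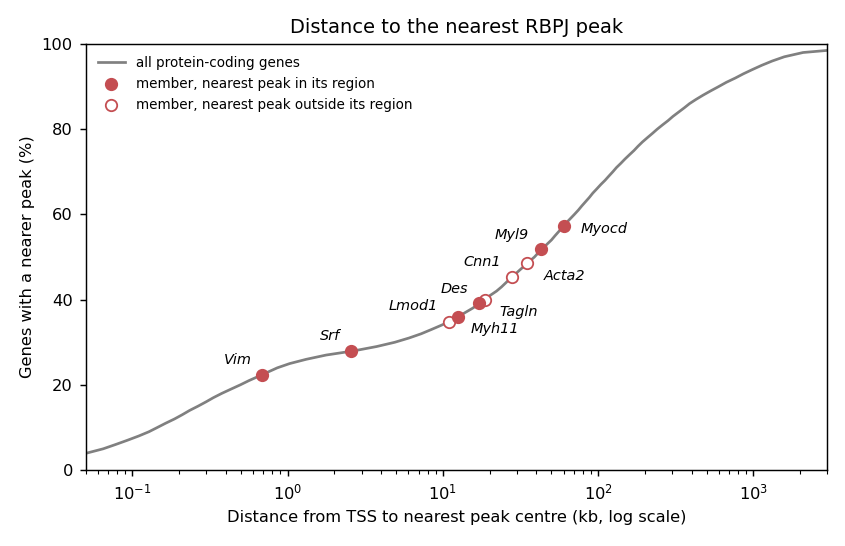
Distance from each TSS to the nearest peak centre in kb on a log scale, against the percentage of protein-coding genes with a nearer peak. The grey line gives all genes and the points the 10 members, filled where the nearest peak lay in the gene's own region; the members lie between 22.4% and 57.4%, with Acta2, Tagln, Cnn1 and Lmod1 as open points.

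TGGGAA was present in 10 of the 13 peaks over their whole length, against 64.9% of all peaks, and in 5 of 13 within the central 200 bp, or 38.5% (95% exact binomial interval 13.9 to 68.4%), against 25.8% of all peaks. Whole peaks held 1.43 sites per kb at the members and 1.25 per kb in the full list. The central sites were found in narrow peaks. Of the 6 peaks under 500 bp, 5 had TGGGAA in the central window, where 41.1% of all peaks of that width did. Of the 7 wider peaks 0 had it, where 17.2% of all peaks of that width did. The 5 peaks with central sites were those of Des, Srf (33.7 kb), Myocd (96.8 kb), Myl9 (43.2 kb) and Vim (129 kb), all distal, and the 8 sites in them lay 2 to 23 bp from the centre. AP-1 sequences were present in 5 of 13 whole peaks, against 24.8% of all, and CATTCC, the MCAT box bound by TEAD factors, in 7 of 13, against 39.4%. In the Vim peak at 129 kb and the Srf peak at 33.7 kb, the only CATTCC overlapped a TGGGAA site, so that the same bases were read for both motifs.

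**Figure D3:**
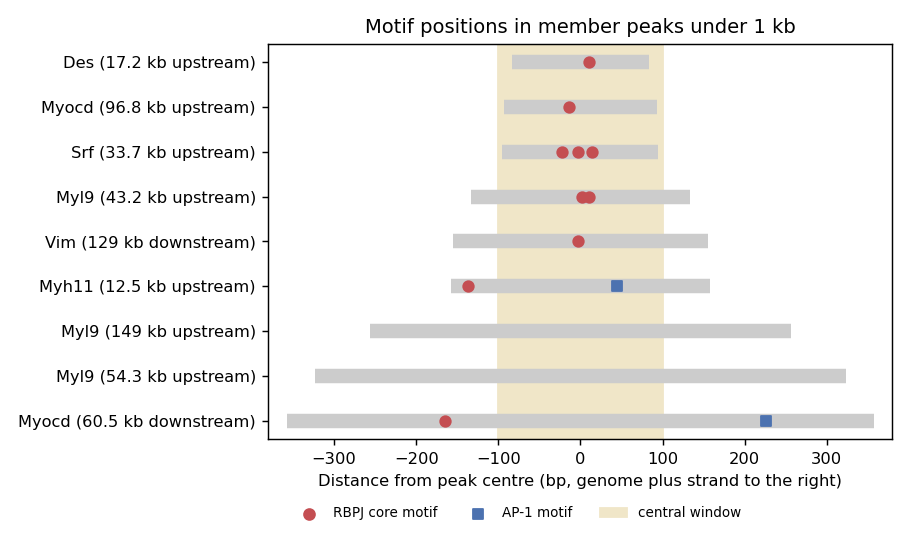
Positions of the RBPJ core motif (circles) and the AP-1 motif (squares) in the 9 member peaks under 1 kb, in bp from the peak centre along the plus strand of the genome. Grey bars give the extent of each peak and the shaded band the central 200 bp; the motif lies within 23 bp of the centre in 5 narrow peaks and away from it in the Myh11 peak and in the Myocd peak at 60.5 kb.

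Promoters of the 10 genes were then searched on both strands, from 250 bp before to 50 bp after the TSS. CArG boxes were found in 3 of 10, those of Tagln, Myl9 and Srf, against 1.48% of 21938 promoters. Only exact matches to CCWWWWWWGG, where W is A or T, were counted. A gene without a match may therefore hold a variant box, or one outside the window. TGGGAA was found in 0 of 10, against 25.3%, and TGACTCA also in 0, against 4.59%. CATTCC was found in Acta2 and Lmod1, against 13.5% of all promoters. Over 500 bp to either side of the TSS, TGGGAA was found at 4 of the 10 genes (Acta2, Tagln, Myh11 and Myl9), against 60.3%, and the CArG box at the same 3 genes, against 4.31%. In that window TGACTCA was found at Acta2 and Vim, against 12.1%, and CATTCC at 5 members (Acta2, Lmod1, Myh11, Des and Vim), against 38.4%. No peak overlapped the stretch from 250 bp before to 50 bp after the TSS at Tagln, Myl9 or Srf, and the wide Srf peak began 320 bp downstream of the TSS. The 250 bases before the TSS of these genes are shown on the strand of the gene, with CArG boxes in capitals.
Tagln, chr9:45936059-45936308, minus strand: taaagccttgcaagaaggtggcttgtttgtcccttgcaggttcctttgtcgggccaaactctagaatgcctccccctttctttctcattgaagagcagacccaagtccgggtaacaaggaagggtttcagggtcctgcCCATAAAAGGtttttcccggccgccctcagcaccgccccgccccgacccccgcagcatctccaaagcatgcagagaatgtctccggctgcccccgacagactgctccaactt
Myl9, chr2:156775170-156775419, plus strand: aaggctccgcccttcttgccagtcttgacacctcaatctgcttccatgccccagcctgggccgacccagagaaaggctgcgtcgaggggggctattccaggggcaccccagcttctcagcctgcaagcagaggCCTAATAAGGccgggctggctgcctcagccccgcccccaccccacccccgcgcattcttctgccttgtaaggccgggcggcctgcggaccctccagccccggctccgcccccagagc
Srf, chr17:46556176-46556425, minus strand: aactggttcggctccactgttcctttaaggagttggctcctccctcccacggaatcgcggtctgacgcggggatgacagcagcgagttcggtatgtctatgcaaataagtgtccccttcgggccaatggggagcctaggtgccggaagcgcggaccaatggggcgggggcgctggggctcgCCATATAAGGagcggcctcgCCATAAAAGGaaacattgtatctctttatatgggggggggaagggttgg
The CArG boxes before the TSS began 112 bp upstream at Tagln, 117 bp upstream at Myl9, and 69 and 49 bp upstream at Srf. Tagln had another, with its first base at position 12 downstream of the TSS.

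Other genes of the contractile programme were counted for comparison. Of 32 such genes, 23 had a peak, or 71.9% (95% exact binomial interval 53.3 to 86.3%), where 46.7% of all genes had one. Their regions held 66 peaks against 31.0 from density. That number assumes an even spread along the chromosome, although 49.5% of all peaks were centred within 1 kb of a protein-coding transcript start. The same comparison is not given here for all genes, so an excess particular to these genes cannot be read from it. The median region was longer for these genes, at 216 kb, than for all genes, at 93.8 kb. A peak was centred within 1 kb of the TSS at 14 of the 32 genes, or 43.8%, against 1 of 10 members and 24.9% of all genes, with no test made of the difference. These 14 included genes of myosin and its regulation (Myh9, Myh10, Mylk and Ppp1r12a), of actin adhesion and binding (Vcl, Actn1, Cnn3 and Tagln2), and of transcriptional regulators (Mrtfa, Mrtfb and Klf4). At Mylk, the gene of myosin light chain kinase, the peak was 47 bp upstream of the 5′ end of the gene, but 39758 bp from the nearest start of a protein-coding transcript.

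The list held 4 paralogues of the members with no peak, and each had 0 or 1 peak. Actg2, which encodes the other smooth muscle actin, had 0, with the nearest peak 29480 bp from its TSS. Cnn3 had 1 peak, centred 247 bp downstream of its TSS, and Cnn2 had 0, whereas the Tagln relative Tagln2 had 1, centred 686 bp downstream. Actg2 and Cnn2 were named after their values were seen. Among factors that act with SRF, the genes of the myocardin-related cofactors, Mrtfa and Mrtfb, had 5 and 11 peaks against 1.45 and 2.61 from density. Elk1 and Elk4, also genes of factors that act with SRF, had 0 and 1 peak against 0.0233 and 0.502, and were named after their values were seen. A peak was present at 8 of 12 smooth muscle contractile genes and at 7 of 11 filament and adhesion genes. Chromosomes 4, 7 and X held 6 of the 32 genes and 5 of the 9 without a peak, and these chromosomes held few peaks, 158, 146 and 144 in that order, or 0.842 to 1.01 per Mb against 3.18 per Mb or more on the other autosomes. None of the 10 members lies on them.

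**Figure D4:**
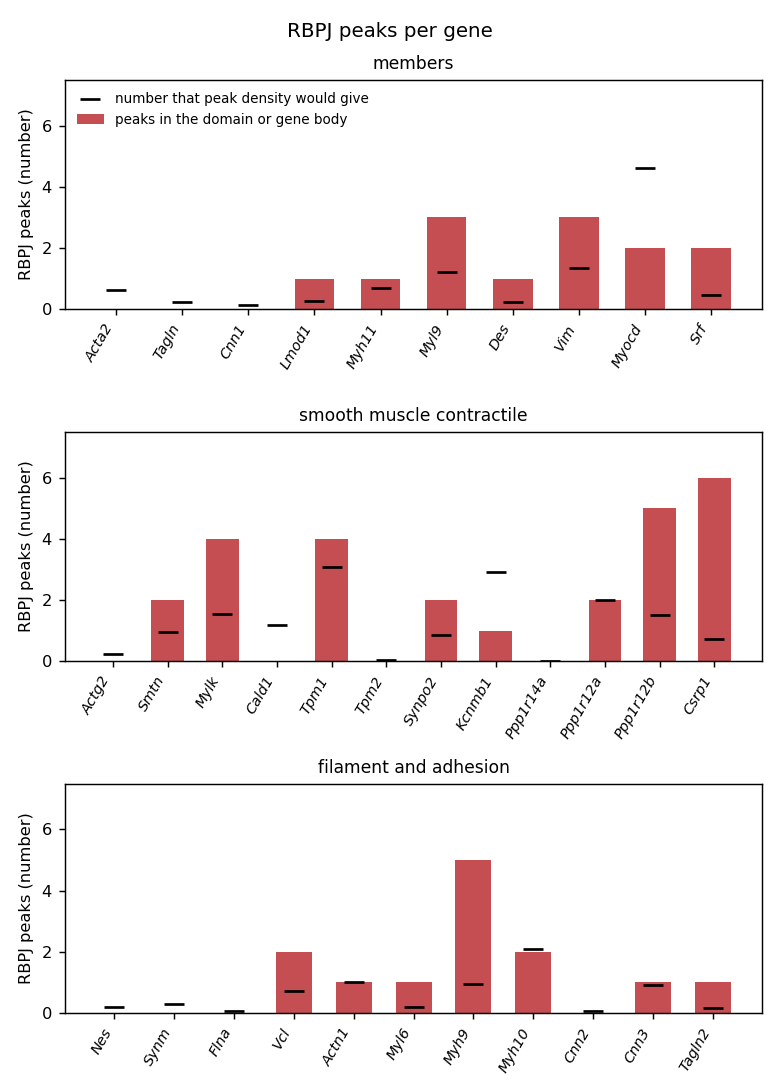
Number of RBPJ peaks in the regulatory domain or gene body of each member and of 23 of the other genes, those for smooth muscle contractile proteins and for filaments and adhesion (bars), with the number that the density of peaks on the chromosome would give over the same length (black lines). Myocd stands below its line, with 2 peaks against 4.62, and Myh9 above, with 5 against 0.964.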

How the data were processed

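RBPJ ChIP-seq peaks of RD1 cells were used. By the methods of the study, the authors used Bowtie for alignment to GRCm38, removed duplicate reads, and ran both MACS2 and PeakRanger to call peaks. They joined peaks at most 2 kb apart, required 3 or more overlapping calls over methods and replicates, and dropped blacklisted regions. The RBPJ peak files used here hold 1 consensus list of positions in bp, without scores. Starts were read as counted from 1. Merging widens intervals, so that the centre need not be the bound site.

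Genes were those of GENCODE M21 on GRCm38, and sequence came from the RefSeq copy of that build, whose lower-case letters gave the soft-masked share. Principal transcripts followed APPRIS. The number of peaks from density was the length of a region times the peaks per bp of its chromosome. It takes no account of peaks that gather near transcript starts, and it is a description, not a baseline for gene regions. Motifs were searched on both strands, and overlapping motifs were counted separately. The CArG box was searched as exact matches to CCWWWWWWGG (W is A or T), in peaks as in promoters. Intervals are 95% exact (Clopper-Pearson) and cover counting error only. They treat genes or peaks as independent draws, whereas the genes were chosen by name and several peaks share a gene, so they are descriptions. No test between groups was made, since the replicates share 1 list.

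The members, lists and motifs were chosen with earlier results of these data known. All 10 members were described, 11 of the 14 other programme genes with a peak centred within 1 kb of the TSS were named (the other 3 are not reported here by name), and neighbours where nearer to a peak than the member. Domain assignment and motif search were tested on simulated data. Alternatives covered the domain, peak assignment, width, TSS, motif and window. Scripts ran under Python 3.11.15 with pandas 2.3.3, numpy 2.4.6, matplotlib 3.10.9 and scipy 1.17.1. Distances of a motif are from its middle to the peak centre.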

Additional observations from a re-analysis of the deposited data

How the results depend on the processing

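With the basal part of the domain alone, 1 member (Vim) had 1 peak and 15 other programme genes had one, since smaller domains catch fewer peaks by construction. Peaks of at least 500 bp left 7 of 13 peaks at 5 members (34.9% of all genes), with TGGGAA in the central window of 0% and a median distance of 43.3 kb to the nearest peak (71.3 kb for all genes). Assignment to the nearest TSS only, which was added after seeing the data, left 8 peaks at 6 members (35.2% of all genes), and Lmod1 lost its peak. Over whole peaks TGGGAA was present in 76.9%, as longer windows hold more sites, and GTGGGAA was present in the central window of 3 of 13, or 23.1% (9.3% of all peaks). Promoters 500 bp to either side of the TSS held TGGGAA in 4, TGACTCA in 2 and CATTCC in 5 members. The other 30 of 41 comparisons, 8 of which leave out 1 of the identical files and could not change, stayed within 1.5 times the main count or distance, or within the wide interval of the TGGGAA share (as GTGGGAA did), among them an extension of 100 kb, the APPRIS start, overlap of 1 bp (8 members, with Tagln) and the other programme genes without chromosomes 4, 7 and X (22 of 26, against 54.8% of genes there; chosen after seeing the data). The lists without RBPJ replicate 1 and without RBPJ replicate 2 both gave 7 members, 13 peaks, 23 other genes and 38.5%. For single genes 22 of 30 distances stayed within 1.5 times, and 8 moved, such as Myocd from 60450 to 4072 bp with the start of any transcript and Myh11 from 12485 to 70355 bp with wide peaks alone. No paired analysis was possible because both replicates of RBPJ share one peak list and no groups were set against each other. With 1 list and no depth, presence of a peak could not be checked by replicate here. The only replicate check was the authors' own rule of 3 or more overlapping calls over methods and replicates.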
